A study of Mus musculus with 4 samples.

Results

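Granzyme K, encoded by Gzmk (ENSMUSG00000042385), was followed across the T cell types of the mouse small-intestinal crypt, as 1 of the 32285 genes counted. The gene was chosen on its measured level, which earlier results of these data had shown to differ between diets and cell types, so its levels and differences are given as a description, with no test. Tests are given only for other genes.

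CD45+ cells, which are immune cells of the blood lineage, were sorted from intestinal crypts of male mice and profiled by 5′ single-cell RNA sequencing (10x Genomics), in which each captured RNA molecule is counted once through a unique molecular identifier (UMI). Of the 4 samples, 2 came from mice fed a cystine-rich diet (cystine is 2 cysteines joined by a disulphide bond) and 2 from mice fed the control diet. The extraction protocol speaks of high cysteine where the titles say cystine. Diets follow the sample titles, since the treatment tag says "Control" throughout. Strain and age are not among the labels, nor is whether mice were pooled for a sample, so that p-values here reflect the spread between samples, which may be technical. The study's title concerns dietary cysteine, CD8+ T cells and the cytokine IL-22.

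Granzymes are serine proteases that killer lymphocytes store in cytoplasmic granules and release towards target cells, where perforin gives them entry. Granzyme A and granzyme K are tryptases, which cut after basic residues, and their genes lie side by side, apart from the Gzmb cluster. In mice and humans Gzmk is known as a marker of memory-like CD8 T cells with less cytotoxic potential than cells rich in Gzmb. The crypt epithelium also holds γδ T cells and CD8αα αβ T cells, natural intraepithelial lymphocytes that reach the gut early and stay there.

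The stretch before the Gzmk start site is shown for a search of short recognition letters of transcription factors. The families searched were T-box, Tcf and Runx, which all have members in the gene lists below. It is the RefSeq window of 250 bases on the minus strand of mouse chromosome 13, chr13:113180966-113181215 in build GRCm38.p6, printed 5′ to 3′ with the motif matches in capitals.
Gzmk: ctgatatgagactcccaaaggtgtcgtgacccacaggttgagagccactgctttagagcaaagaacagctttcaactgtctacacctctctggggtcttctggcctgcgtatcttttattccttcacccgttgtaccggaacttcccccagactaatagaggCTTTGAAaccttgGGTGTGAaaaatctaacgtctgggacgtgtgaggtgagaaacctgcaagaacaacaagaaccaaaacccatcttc
Both strands were searched and the matches do not overlap. The Tcf letters CTTTGAA matched once, from 88 to 82 bases before the start, and 4.46% of the 32851 promoter windows of this length hold them. The T-box letters GGTGTGA matched once, from 75 to 69 bases before the start, and 3.33% of windows hold them. The Runx letters TGTGGT, held by 14.0% of windows, had 0 matches here. A match is a description of the letters and not a bound site.

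After filtering, 58725 of 68260 barcodes were kept, with 13481 to 16317 cells and a median of 1294 to 1713 UMIs per cell in a sample. The total deposited UMIs lay between 27229695 and 31301936 per sample. Cystine replicate 1 had 19351 barcodes, more than the 18000 cells loaded, and any 2 libraries shared 335 to 454 barcode sequences, from 2.18% to 2.69% of the smaller one. Cell types were set by each cell's own marker UMIs, which gave 3645 CD8αβ cells (Cd8a with Cd8b1), 261 CD4 cells, 18294 γδ cells (Trdc), 10075 CD8αα αβ cells (Cd8a and Trac without Cd8b1), 96 natural killer (NK) cells, 3222 B cells and 1292 plasmacytoid dendritic cells (pDC) over the 4 samples. Another 21819 cells met no gate, and the few that met more than 1 were left out of all types. In all, 18544 Gzmk UMIs were found in 9887 cells.

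The gates were checked against markers they did not use. Fcer1g is a signalling adaptor of NK cells and natural intraepithelial lymphocytes. On average it was found in 29.3% of CD8αβ cells, 92.7% of CD8αα αβ cells, 89.8% of γδ cells and 11.8% of CD4 cells. Tyrobp was found in 20.6% of CD8αβ, 75.1% of CD8αα αβ and 63.9% of γδ cells, and Cd244a in 20.2%, 40.7% and 41.9%. Cd160, from the same set of CD8αα αβ markers, went the other way, with 61.1%, 47.4% and 46.8%. The CD8αα αβ cells carried γδ receptor RNA as well, with Tcrg-C1 in 41.6% and Trdv2-2 in 17.1% of them, against 57.7% and 21.6% of γδ cells. The γδ cells in turn carried αβ receptor RNA, with Trac in 46.3% and Trbc2 in 37.0% of them. Trbc2 was found in 40.4% of CD8αα αβ cells. In CD8αβ cells Trac was found in 36.2% and Trbc2 in 38.7%, so that these RNAs did not set γδ cells apart from αβ cells. Tcrg-C1 and Trdv2-2 were lower in CD8αβ cells, at 12.04% and 3.6%. Tcrg-C2 was found in 29.2% of CD8αβ, 40.6% of γδ and 40.8% of CD8αα αβ cells, and Tcrg-C4 in 29.2%, 45.9% and 46.5%. By these markers the CD8αα αβ and γδ gates were not told apart cleanly, and the name CD8αα αβ describes the gate only. The pDC themselves held Cd8b1 RNA in 61.1% of cells. UMIs of the pDC or B cell genes Siglech, Pld4, Cd79a or Ms4a1 were found in 14.6% and 7.79% of the CD8αβ cells of cystine replicates 1 and 2, against 7.04% and 4.25% in control replicates 1 and 2. The share was higher in both cystine samples, and the main CD8αβ results are therefore also given without these cells.

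In CD8αβ cells of the cystine samples Gzmk was read in most cells, and in CD8αβ cells of the control samples in 17.9% and 26.3%. A Gzmk UMI was found in 803 of 1323 CD8αβ cells of cystine replicate 1 (60.7%, 95% Clopper-Pearson interval 58.0% to 63.3%) and in 721 of 1297 of cystine replicate 2 (55.6%, 52.8% to 58.3%). The control samples had 99 of 554 such cells (17.9%, 14.8% to 21.3%) in replicate 1 and 124 of 471 (26.3%, 22.4% to 30.6%) in replicate 2. Both cystine samples lay above both controls, although the control cells were the deeper ones, with median UMIs of 1347 and 1642 in the cystine samples against 1686.5 and 1871 in the controls. These intervals cover counting error only.

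Summed over the CD8αβ cells of a sample, Gzmk stood at 912 and 777 CPM (UMI counts scaled to a common library total) in cystine replicates 1 and 2, against 155 and 262 CPM in control replicates 1 and 2. The means were 844 ± 95.3 CPM in the cystine samples and 209 ± 75.8 CPM in the controls (SD, n = 2 each), and the groups did not overlap. In the edgeR fit of all genes of these cells the log2 difference was 1.94 (SE 0.21), where the median gene differed by 0.0026. Without the cells holding pDC or B cell UMIs the levels were 1014 and 870 CPM in the cystine samples and 162 and 277 CPM in the controls. That log2 difference was 2.02 (SE 0.19).

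The share of cells with a Gzmk UMI differed more than the UMIs per positive cell. At so few UMIs these are not separate measures, since a lower level per cell also leaves more cells without a UMI. Whether more cells expressed Gzmk or each held more of it was not tested. Among CD8αβ cells with a Gzmk UMI, the mean was 2.25 and 2.57 Gzmk UMIs per cell in the cystine samples and 1.65 and 2.14 in the controls. As a share of all kept cells, Gzmk-positive CD8αβ cells made up 4.92% and 5.02% in the cystine samples, against 0.68% and 0.92% in the controls. CD8αβ cells without a Gzmk UMI made up 3.19% and 4.01% in the cystine samples and 3.13% and 2.57% in the controls. The Gzmk-positive share was thus 6.21 times as large on average, and the Gzmk-negative share 1.26 times, with samples of both diets close together in the second.

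**Figure D1:**
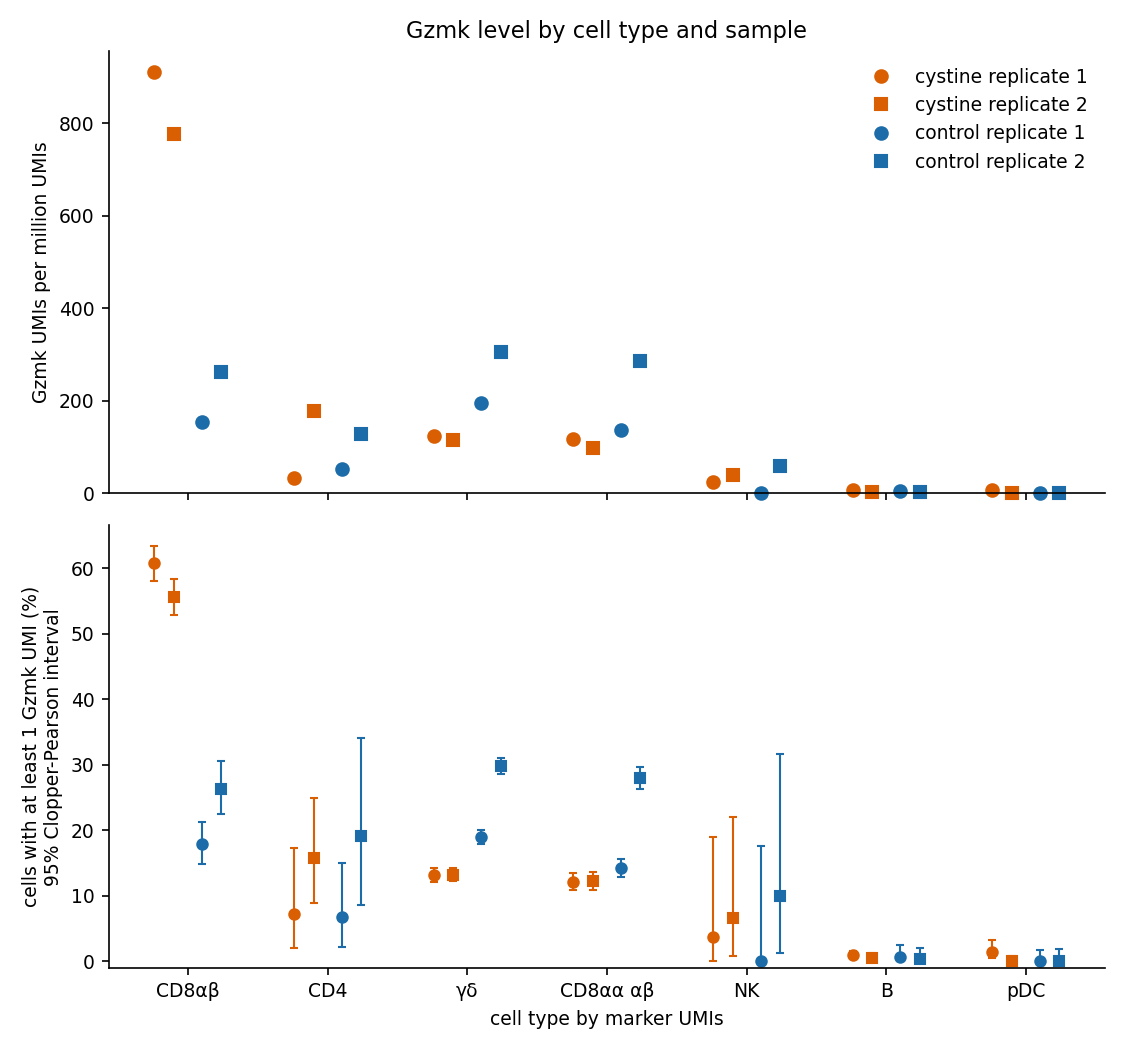
Gzmk level in CPM (upper panel) and the share of cells with at least 1 Gzmk UMI with its 95% Clopper-Pearson interval (lower panel), for 7 cell types and each sample, cystine in orange and control in blue. The CD8αβ cells of both cystine samples, at 912 and 777 CPM, lie above all other points, while γδ cells of both cystine samples lie below both controls.

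In γδ cells the order of the diets was the opposite. A Gzmk UMI was present in 13.1% and 13.2% of the 3850 and 4254 γδ cells of the cystine samples, against 18.9% and 29.8% of the 5041 and 5149 γδ cells of the controls. The level was 123 and 116 CPM in the cystine samples and 195 and 305 CPM in the controls, with a log2 difference of -1.14 (SE 0.21). Both cystine samples lay below both controls, and the 2 controls differed from each other more than the cystine samples did. Without control replicate 2 the log2 difference was -0.71. Median UMIs per γδ cell were 1480 and 1630 in the cystine samples and 1449 and 1788 in the controls.

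Within γδ cells the same order was seen for each of 3 Vγ genes, a division chosen after the data were seen. Cells with Tcrg-V7 UMIs, the chain typical of γδ intraepithelial lymphocytes of the mouse gut, were Gzmk-positive in 13.4% and 14.5% in the cystine samples and 23.3% and 29.1% in the controls. Those with Tcrg-V1 were positive in 14.0% and 16.3% in the cystine samples, against 20.1% and 37.8% in the controls. For Tcrg-V4 the shares were 10.2% and 9.30% in the cystine samples, against 19.6% and 25.3% in the controls. In all 3 divisions the cystine samples did not overlap the controls, with 172 to 1717 cells behind each share.

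**Figure D2:**
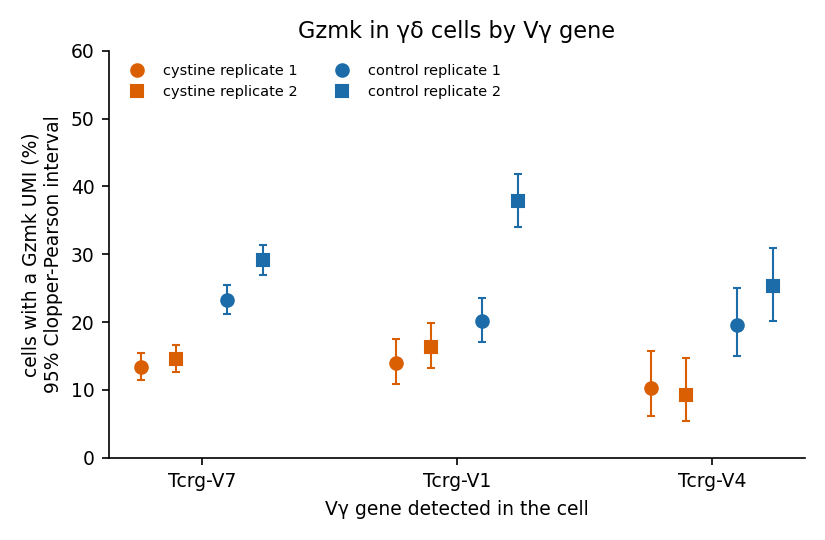
Share of γδ cells with a Gzmk UMI, with its 95% Clopper-Pearson interval, among cells in which only Tcrg-V7, only Tcrg-V1 or only Tcrg-V4 of these 3 genes was read, by sample. The cystine samples (orange) lie between 9.30% and 16.3% and the controls (blue) between 19.6% and 37.8%.

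CD8αα αβ cells were like γδ cells in the cystine samples and differed between the controls. Shares with a Gzmk UMI were 12.1% and 12.2% in the cystine samples, against 14.2% and 27.9% in control replicates 1 and 2. The level was 117 and 98.6 CPM in the cystine samples and 136 and 286 CPM in the controls. The log2 difference was -1.06 (SE 0.30), and without control replicate 2 it was -0.36, so that this sample sets most of its size.

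CD4 cells were few, and their values overlapped between the diets. There were 56 and 89 CD4 cells in the cystine samples and 74 and 42 in the controls. Of these 7.14% and 15.7% were Gzmk-positive in the cystine samples, and 6.76% and 19.0% in the controls. The level was 33.9 and 179 CPM in the cystine samples, on 4 and 25 UMIs, against 51.5 and 128 CPM in the controls, on 7 and 12 UMIs. The log2 difference was 0.42 (SE 0.74), which is within its error.

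B cells and pDC, which are not known for Gzmk, were read as the background level. The source of their Gzmk UMIs was not tested. Gzmk-positive B cells were 1.002% and 0.52% in the cystine samples and 0.71% and 0.36% in the controls, at median depths of 1123 and 1283 UMIs and of 1096 and 1272 UMIs. Among pDC, which were deeper at a median of 2481 to 3128.5 UMIs, 6 of 407 cells of cystine replicate 1 were positive. In cystine replicate 2 there were 0 of 470 pDC, which allows a share of up to 0.638%, and in control replicates 1 and 2 there were 0 of 218 and 0 of 197, which allow up to 1.38% and 1.52%. The shares in CD8αβ, γδ and CD8αα αβ cells were above all of these in every sample.

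The ratio of Gzmk to Gzma UMIs was also read against that background. B cells had 7.97 and 5.83 Gzmk UMIs for every 1000 Gzma UMIs in the cystine samples and 5.14 and 10.1 in the controls, counted on 19, 4, 2 and 1 Gzmk UMIs. CD8αβ cells had 93.0 and 61.0 in the cystine samples and 12.01 and 15.2 in the controls. In γδ cells the ratio was 3.47 and 3.28 in the cystine samples and 5.98 and 7.87 in the controls, within or below the range of the B cells. CD8αα αβ cells had 3.06 and 2.55 in the cystine samples and 3.86 and 6.25 in the controls. The ratio falls as Gzma rises, and Gzma stood at 32506 to 38826 CPM in γδ cells against 236 to 972 CPM in B cells. The ratio alone therefore cannot tell Gzmk of γδ cells from background, which was not tested.

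NK cells were 27 and 30 in the cystine samples and 19 and 20 in the controls. Their 1 and 2 Gzmk UMIs in the cystine samples and 0 and 2 in the controls give intervals that reach from 0.0937% to 31.7% where a UMI was found. The 0 of 19 cells allows up to 15.8%. No level of Gzmk in NK cells can be set apart from that of B cells or γδ cells at this depth.

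Ranked by mean level over the cystine samples, CD8αβ cells (844 CPM) stood first by more than the spread between samples, followed by γδ (120 CPM), CD8αα αβ (108 CPM) and CD4 cells (106 CPM), which do not differ beyond theirs. In the controls γδ (250 CPM), CD8αα αβ (211 CPM) and CD8αβ cells (209 CPM) overlapped, and CD4 cells had 89.8 CPM. NK cells (31.1 CPM in the cystine samples and 29.2 CPM in the controls), B cells (5.23 CPM in the cystine samples and 3.69 CPM in the controls) and pDC (2.96 CPM in the cystine samples and 0 CPM in the controls) came last, the NK values resting on 0 to 2 UMIs a sample.

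The order of the diets in CD8αβ and in γδ cells was the same at equal depth. With each cell thinned to 1000 UMIs and shallower cells left out, 1112 and 1123 CD8αβ cells remained in the cystine samples and 485 and 447 in the controls. Of these 54.5% and 48.4% were positive in the cystine samples, against 12.2% and 18.3% in the controls. Thinned γδ cells were positive in 9.33% and 8.77% in the cystine samples and in 14.3% and 21.6% in the controls.

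Summed over all kept cells, Gzmk did not separate the diets. The level was 170 and 160 CPM in the cystine samples and 149 and 267 CPM in the controls, which overlap, with a log2 difference of -0.39 (SE 0.29) that was 0.16 without control replicate 2. The source of the RNA did separate them. CD8αβ cells held 42.7% and 45.0% of all Gzmk UMIs in the cystine samples and 4.89% and 3.87% in the controls. γδ cells held 18.8% and 22.1% in the cystine samples and 48.0% and 45.5% in the controls.

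Counted in cells, CD8αβ cells were 34.4% ± 0.574 of all Gzmk-positive cells in the cystine samples and 4.23% ± 0.853 in the controls (SD, n = 2 each). γδ cells were 24.2% ± 3.23 in the cystine samples and 45.7% ± 1.19 in the controls. The share among cells that met no gate was alike, at 27.7% ± 2.51 in the cystine samples and 28.7% ± 3.23 in the controls. The share of all CD8αβ cells moved too, at 8.57% ± 0.649 of kept cells in the cystine samples and 3.65% ± 0.220 in the controls.

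**Figure D3:**
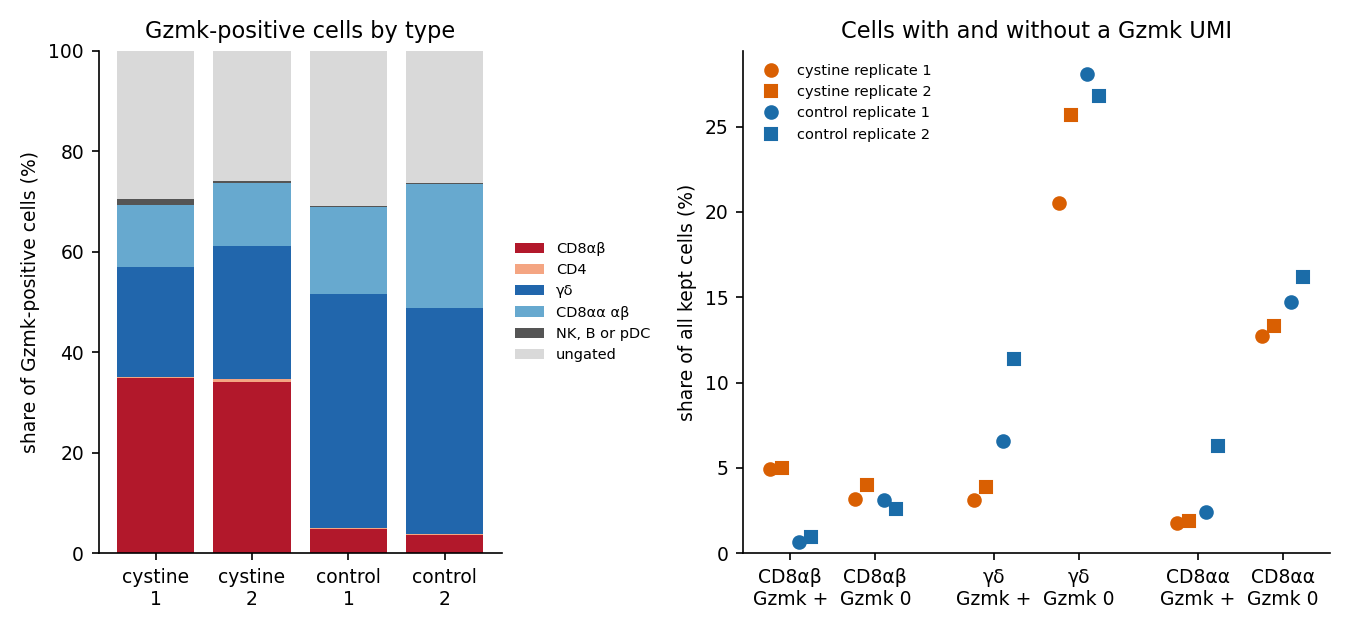
Left, the cell types of the Gzmk-positive cells of each sample, as shares that sum to 100%. Right, cells with (Gzmk +) and without (Gzmk 0) a Gzmk UMI as a share of all kept cells, for CD8αβ, γδ and CD8αα αβ cells, each point 1 sample. CD8αβ cells are 34.4% of positive cells on average in the cystine samples and 4.23% in the controls.

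Positive CD8αβ cells also carried more than a single UMI more often than positive γδ cells. Of positive CD8αβ cells, 62.5% and 64.9% had at least 2 Gzmk UMIs in the cystine samples and 43.4% and 56.5% in the controls. Of positive γδ cells, 29.9% and 33.9% had at least 2 in the cystine samples and 36.5% and 48.8% in the controls. In both types the order of the diets was the same as for the share of positive cells. Of positive CD8αα αβ cells 35.2% and 28.5% had at least 2 in the cystine samples and 32.5% and 46.8% in the controls, which overlap.

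**Figure D4:**
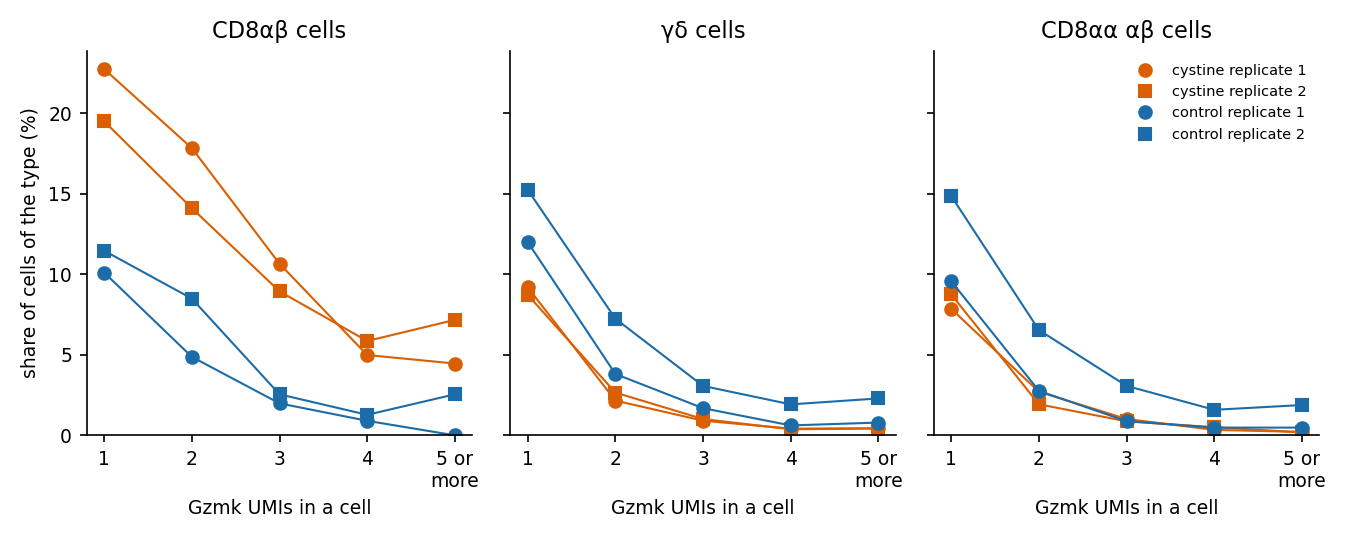
Share of CD8αβ, γδ and CD8αα αβ cells with 1, 2, 3, 4 and 5 or more Gzmk UMIs, by sample. In CD8αβ cells the cystine samples (orange) lie above the controls (blue) at every number of UMIs, and in γδ cells below them.

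Among the 8 genes whose level over the 28 combinations of cell type and sample was most like that of Gzmk were Apol7b (Pearson r 0.90), Gm11707 (0.90), Igflr1 (0.89), Actn2 (0.88), Hdhd5 (0.88), Bcl11b (0.87) and Klk8 (0.87), out of 7699 genes ranked on log2(CPM + 10). Bcl11b is a transcription factor of the T lineage. The likeness rested mostly on the step between T cells and the other types. Within the 16 combinations of the 4 T cell types the named genes had r from 0.06 for Igflr1 to 0.66 for Apol7b. All points of a sample share its library and depth.

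In CD8αβ cells the diets also differed in other genes, which were tested with edgeR's quasi-likelihood test and Benjamini-Hochberg adjustment. Of 8912 genes, 63 (0.707%) passed an adjusted p of 0.05, 16 higher (0.18%) and 47 lower (0.527%) in the cystine samples. Of the 19 tested genes known beside Gzmk in memory T cells, 3 were higher and 0 lower, with a list median log2 fold change of 0.35 beside 0.0026 over all genes. Ly6a, an interferon-induced surface protein of mouse T cells, had 630 and 585 CPM in the cystine samples and 286 and 239 CPM in the controls. It rose by 1.21 (SE 0.12, adjusted p = 0.0015) in the cells as gated, with those holding pDC or B cell UMIs kept. Ly6a still passed when those cells were left out, and the size of its difference there is not given. Cxcr6, the receptor of the epithelial chemokine Cxcl16, had 497 and 347 CPM in the cystine samples, against 174 and 204 CPM in the controls, and rose by 1.16 (SE 0.17, adjusted p = 0.015). Ly6a passed whichever sample was left out. Cxcr6 (0.88 to 1.40) kept its direction and did not pass without control replicate 1 or control replicate 2.

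Among the other granzymes none passed the test between the diets as reported. Of the 9 other granzyme genes 2 were abundant enough to be tested and 0 passed in edgeR, where 968 genes had an unadjusted p under 0.05. Gzma had 9525 and 12747 CPM in the cystine samples and 13040 and 18403 CPM in the controls, with a log2 fold change of -0.50 (adjusted p = 0.216). Gzmb, the main apoptosis-inducing granzyme, had 1348 and 2519 CPM in the cystine samples, against 2778 and 4057 CPM in the controls, with -0.82 (adjusted p = 0.199). Both calls depended on the fit. Gzma passed in 3 of 15 alternatives and Gzmb in 4 of 15, lower in the cystine samples each time, and without cystine replicate 2 their log2 fold changes were -0.72 and -1.34. Perforin (Prf1) and the granule proteins Nkg7 and Srgn were among 15 granule partners of which 0 passed, with a list median of -0.21. Prf1 had a log2 fold change of 0.23, Nkg7 of 0.06, Ccl5 of 0.04 and Itgae, the αE integrin that binds epithelial cadherin, of 0.0039, and none of these passed.

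The remaining lists held falls. Tcf7, which encodes the transcription factor TCF-1 of stem-like and resting T cells, was the 1 of 10 naive and circulating T cell genes that passed. It had 66.6 and 70.5 CPM in the cystine samples and 125 and 137 CPM in the controls (log2 fold change -0.93, adjusted p = 0.015). Of 14 genes of epithelial residence 2 fell. These were Cd7, a surface protein of T cells (-1.28, adjusted p = 0.00038), and Fcer1g (-0.72, adjusted p = 0.042). The 6 summed γδ T cell markers also stood lower in these CD8αβ cells, at 333 and 468 CPM in the cystine samples against 743 and 838 CPM in the controls, with Trdc at 0 by the gate in every sample. Summed NK markers, which hold Fcer1g, were at 1713 and 1600 CPM in the cystine samples and 1934 and 2071 CPM in the controls. The part of these cell types in the falls was not tested. Il2 was the 1 of 12 effector factors and cytokines that passed, with 0.979 and 1.26 CPM in the cystine samples and 11.5 and 9.48 CPM in the controls (-3.14, adjusted p = 0.032). Such levels rest on few UMIs in every sample, fewest in the cystine samples, where they lie near the floor of counting. Of these 4, Cd7 passed whichever sample was left out, and Tcf7 (-0.997 to -0.86), Fcer1g (-0.88 to -0.54) and Il2 (-3.31 to -2.98) did not pass without control replicate 2. Tcf7 and Fcer1g did not pass without control replicate 1 either, Fcer1g and Il2 not without cystine replicate 2, and Il2 not without cystine replicate 1. Without the cells with pDC or B cell UMIs 81 of 8344 genes (0.971%) passed, 23 higher (0.276%) and 58 lower (0.695%), with 4 of 18 tested genes known beside Gzmk higher.

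To see what accompanies Gzmk in a cell, UMIs were summed within each sample over Gzmk-positive and over Gzmk-negative cells of a type and compared with the sample as a block, with Gzmk left out. In CD8αβ cells as gated, 282 of 7265 genes (3.88%) passed, 62 higher (0.853%) and 220 lower (3.03%) in Gzmk-positive cells. The lower genes were led by genes of pDC. Siglech, the lectin that defines mouse pDC, averaged 17.3 ± 12.1 CPM in Gzmk-positive and 283 ± 113 CPM in Gzmk-negative cells (SD, n = 4 samples), a fall by 3.90 on the log2 scale (adjusted p = 4.0e-09). Cd209a had a log2 fold change of -4.41, Klra17 of -4.57 and Lefty1 of -3.96, each lower in 4 of 4 samples. All 6 pDC markers were lower, with a summed level of 360 CPM in Gzmk-positive and 2387 CPM in Gzmk-negative cells. Cells with a pDC or B cell UMI were 11.6% and 2.91% of Gzmk-positive CD8αβ cells in the cystine samples and 6.06% and 3.23% in the controls. Of Gzmk-negative CD8αβ cells they were 19.2% and 13.9% in the cystine samples and 7.25% and 4.61% in the controls.

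Of the genes higher in Gzmk-positive CD8αβ cells as gated, Ctla2a rose by 1.70, Scin by 1.29, Dkkl1 by 1.24, Ccl5 by 0.95, Cxcr6 by 0.94 and Fasl by 0.94. Gzma rose by 0.60 (adjusted p = 0.010) and Prf1 by 0.80 (adjusted p = 0.0040). Gzmb, at 0.59, did not pass (adjusted p = 0.0583) but passed in 6 of 16 alternatives, at 0.85 without cystine replicate 1. Itgae, at 0.24, did not pass (adjusted p = 0.20). Leaving out a sample ended the call of Gzma (without control replicate 1, 0.40), of Prf1 (without cystine replicate 2, 0.80, adjusted p = 0.0535), and of Dkkl1 in 3 of 4 such fits. Ly6a (-0.99), Ly6c2 (-2.72) and Cd44 (-0.79) were lower, and Ly6a and Ly6c2 turned positive once cells with pDC or B cell UMIs were left out (1.12 and 0.49). Cd44 did not pass without either cystine replicate (-0.69 and -0.74). Of 18 tested genes known beside Gzmk 2 were higher and 3 lower. Of 15 granule partners 3 were higher, as was 1 of 2 granzymes, and 3 of 7 naive and circulating genes were lower. In the residence list 1 of 14 was higher and 3 lower, and of 10 effector factors and cytokines 1 was lower. Eomes, the T-box factor often named beside Gzmk in memory CD8 T cells, was too low to be tested, with a UMI in 0.37% and 0.83% of Gzmk-positive CD8αβ cells of the cystine samples and in 0 of 99 and 0 of 124 of the controls, which allows up to 3.03% and 2.42%.

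Without the cells holding pDC or B cell UMIs, a step added after the data were seen, 57 of 6758 genes (0.843%) differed in CD8αβ cells, 23 higher (0.34%) and 34 lower (0.503%) in Gzmk-positive cells. The summed pDC markers were then alike, at 150 CPM in Gzmk-positive and 147 CPM in Gzmk-negative cells. Of 18 tested genes known beside Gzmk 5 were higher and 0 lower, with a list median of 0.35 beside 0.0020 over all genes.

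Ccl5, a chemokine that draws T cells, had 31655, 36091, 44339 and 50696 CPM in Gzmk-positive cells of cystine replicates 1 and 2 and control replicates 1 and 2, against 24506, 24316, 20322 and 23957 CPM in Gzmk-negative cells. It was higher in Gzmk-positive cells of all 4 samples and rose by 0.79 (SE 0.08, adjusted p = 8.1e-06). Ly6a averaged 264 ± 212 CPM in Gzmk-positive and 121 ± 92.1 CPM in Gzmk-negative cells (log2 fold change 1.12, SE 0.12, adjusted p = 1.48e-05). S100a6, a calcium-binding protein, averaged 111 ± 19.5 CPM in Gzmk-positive and 43.0 ± 22.6 CPM in Gzmk-negative cells (1.38, adjusted p = 0.00016). Cxcr6 rose by 0.78, Fasl by 0.76 and Car2, a carbonic anhydrase, by 0.68, each higher in 4 of 4 samples. These 6 genes passed whichever sample was left out.

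Other rises did not pass in every fit with a sample left out. Lgals1, the galectin-1 gene, rose by 1.04 and did not pass without cystine replicate 2 (0.79). Scin, an actin-severing protein, had a log2 fold change of 1.098 and did not pass without control replicate 1 or control replicate 2 (0.84 at the lowest). Ctla2a, a cathepsin inhibitor, rose by 1.41 (adjusted p = 0.045), Itgb1, the β1 integrin, by 0.92, AA467197 by 1.32, Nkg7 by 0.32 and Rgs1, a regulator of G protein signalling kept by tissue-resident T cells, by 0.50. In the fits with a sample left out their folds kept their direction, at 1.17 to 1.57 for Ctla2a, 0.80 to 1.09 for Itgb1, 1.14 to 1.55 for AA467197, 0.25 to 0.38 for Nkg7 and 0.44 to 0.54 for Rgs1. Ctla2a and Itgb1 passed in 0 of these fits, Rgs1 in 1, Nkg7 in 2 and AA467197 in 3.

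As reported, Gzma and Gzmb did not pass in these cells. Gzma averaged 19908 ± 8806 CPM in Gzmk-positive and 13397 ± 2055 CPM in Gzmk-negative CD8αβ cells (log2 fold change 0.46, SE 0.12, adjusted p = 0.078). It was higher in Gzmk-positive cells of both controls and of cystine replicate 2 and lower in those of cystine replicate 1. Gzmb had a log2 fold change of 0.44 (adjusted p = 0.26). Gzma passed in 4 of 9 alternatives and Gzmb in 3 of 9, higher in Gzmk-positive cells each time. Without cystine replicate 1 Gzma had 0.68 and Gzmb 0.72, and without cystine replicate 2 Gzma had 0.57 and Gzmb 0.55, and all of these passed. Prf1 had a log2 fold change of 0.58 (adjusted p = 0.10), Cd44 of -0.27 and Itgae of 0.08. Among 14 granule partners Fasl and Nkg7 were the 2 that rose.

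Genes lower in Gzmk-positive CD8αβ cells included the homing receptor Ccr7, with 5.41 ± 8.99 CPM in Gzmk-positive and 30.2 ± 12.4 CPM in Gzmk-negative cells (log2 fold change -3.57, adjusted p = 0.00074). In control replicate 1 its levels were close, at 18.8 and 19.0 CPM. Tcf7 averaged 65.7 ± 17.7 CPM in Gzmk-positive and 137 ± 37.8 CPM in Gzmk-negative cells (-1.05, adjusted p = 0.00026). These were the 2 of 6 naive and circulating genes that fell. The signalling adaptors Fcer1g and Tyrobp of natural intraepithelial lymphocytes fell by 1.25 and 1.24, as the 2 of 14 residence genes that were lower. Summed NK markers, which hold both, stood at 889.6 CPM in Gzmk-positive and 1672 CPM in Gzmk-negative cells, and the part of NK cells was not tested. Xcl1, a chemokine of cytotoxic lymphocytes, fell by 0.77 and Id3, an inhibitor of E proteins, by 0.72, as 2 of 9 effector factors and cytokines.

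The other named falls were Rgcc (-3.29), Gm19705 (-2.55), Gm156 (-2.24), Tnfsf8 (-1.94), Myo1e (-1.53), Tsga10 (-1.45), Lrmda (-1.44), the decarboxylase gene Ddc (-1.36) and Mei1 (-1.18). Tnfsf8 (-1.34), Myo1e (-1.09), Tsga10 (-1.26), Lrmda, Ddc (-0.85) and Mei1 did not pass without cystine replicate 2. Lrmda and Ddc did not pass without cystine replicate 1, nor Mei1 without control replicate 1. Of the residence and effector genes that fell, Tyrobp did not pass without cystine replicate 1 (-0.69), Xcl1 not without control replicate 1 (-0.65), and Id3 passed in 1 of 4 such fits (-0.83 to -0.57). Of 45 receptor and immunoglobulin genes tested 0 were higher and 3 lower. Summed epithelial markers stood at 932 CPM in Gzmk-positive and 438 CPM in Gzmk-negative cells, with 1 of 8 tested higher, and their part in these differences was not tested.

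In γδ cells, where many more cells entered, 867 of 10492 genes (8.26%) differed, 449 higher (4.28%) and 418 lower (3.98%) in Gzmk-positive cells. All 3 tested granzymes were higher. Gzma averaged 45316 ± 3357 CPM in Gzmk-positive and 32721 ± 3216 CPM in Gzmk-negative γδ cells (log2 fold change 0.47, adjusted p = 3.3e-11). Gzmb averaged 8504 ± 1344 CPM in Gzmk-positive and 5718 ± 483 CPM in Gzmk-negative cells (0.57, adjusted p = 6.8e-09). Both were higher in 4 of 4 samples. Gzmc rose by 0.54 (adjusted p = 0.015), did not pass without control replicate 1 or control replicate 2, and had the other sign after thinning (-0.30, adjusted p = 0.725).

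Of 15 granule partners in γδ cells 6 rose, 1 fell and 8 did not pass. The rises included Prf1 by 0.47, the granule proteoglycan gene Srgn by 0.28, Nkg7 by 0.16, Serpinb9, an inhibitor of granzyme B, by 0.46 and Fasl by 0.25. Of 17 tested genes known beside Gzmk 7 rose and 6 fell. The rises included chemokines, their receptors and an integrin, with Ccl3 at 0.66, Cxcr6 at 0.56, Ccl4 at 0.53, Itga4 at 0.52, Ccl5 at 0.50 and Cxcr3 at 0.30. The falls were Pdcd1 at -1.17, Il2rb at -0.56, Tox at -0.37, Lag3 at -0.28, Tigit at -0.25 and Cd27 at -0.22.

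Tcf7 showed the steepest fall among the named γδ genes, with 10.9, 7.69, 12.7 and 12.3 CPM in Gzmk-positive cells of cystine replicates 1 and 2 and control replicates 1 and 2, against 36.8, 54.3, 51.8 and 76.6 CPM in Gzmk-negative cells. Its log2 fold change was -2.41 (SE 0.13, adjusted p = 9e-12), with no overlap between the states. Id3 fell by 2.20, Xcl1 fell by 1.71 and Gm19705 fell by 2.13, and the log2 fold change was -1.68 for Adh1, -1.67 for Cd9 and -1.20 for Frmd5. Of 7 naive and circulating genes 3 fell (Tcf7, Bach2 at -0.97 and Lef1 at -0.71) and 1 rose. That gene was Il7r, the receptor of the survival cytokine IL-7, with 57.8 ± 35.3 CPM in Gzmk-positive and 24.3 ± 11.2 CPM in Gzmk-negative cells (1.28, adjusted p = 6.8e-09). Lef1 did not pass in 3 of 4 fits with a sample left out, nor Bach2 without control replicate 2 (-0.85).

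Further rises in γδ cells were Scin by 1.35, Lgals1 by 1.15, Emp3 by 1.12, Dkkl1 by 1.08, Gadd45b by 1.02, Zeb2, a transcription factor of terminal effector cells, by 0.92, and Plac8 by 0.78. Of 11 effector factors and cytokines 4 rose, Zeb2, Ifng by 0.84, Bhlhe40 by 0.38 and the T-box factor Tbx21 by 0.25, and 2 fell, Id3 and Xcl1. Ifng did not pass without control replicate 1 or control replicate 2. In the residence list 2 of 15 genes rose, Rgs1 by 0.38 and the NK receptor gene Klrd1 by 0.35, and 4 fell, Tyrobp by 0.61, Cd160 by 0.43, Cd7 by 0.22 and Fcer1g by 0.21. Itgae, at 0.09, did not pass.

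Gzmk-positive γδ cells were deeper than Gzmk-negative ones, with median UMIs of 1789 and 2155 in the cystine samples and 1676 and 1907 in the controls, against 1440 and 1566 in negative cells of the cystine samples and 1396.5 and 1729 in those of the controls. With all cells thinned to 1000 UMIs before the split, 328 genes were called. Epithelial markers summed to 530 CPM in Gzmk-positive and 733 CPM in Gzmk-negative γδ cells, with 4 of 10 lower, among them Defa24 (-1.61), and their part in the other differences was not tested. In CD8αβ cells as gated the depths of the states were close, with medians of 1364 and 1617 in positive cells of the cystine samples and 1686 and 1932.5 in those of the controls, against 1314 and 1661.5 in negative cells of the cystine samples and 1687 and 1848 in those of the controls.

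CD8αα αβ cells gave 436 of 9615 genes (4.53%), 230 higher (2.39%) and 206 lower (2.14%) in Gzmk-positive cells. The co-receptor gene Cd6 averaged 23.7 ± 5.52 CPM in Gzmk-positive and 4.19 ± 1.59 CPM in Gzmk-negative cells and rose by 2.44 (adjusted p = 1.1e-06). Il7r rose by 1.78, Scin by 1.36, Themis and Lat, of T cell receptor signalling, by 1.23 and 0.94, Emp3 by 1.18, Plac8 by 1.01 and Thy1 by 0.95. Xcl1 fell by 2.07, Id3 by 2.02, Tcf7 by 1.98 and Klrb1 by 1.58. Of 3 tested granzymes 2 rose, Gzma by 0.39 and Gzmb by 0.49, and 4 of 15 granule partners. Of 15 genes known beside Gzmk 6 rose and 3 fell, of 6 naive and circulating genes 1 rose and 1 fell, of 14 residence genes 2 rose and 4 fell, and of 11 effector factors and cytokines 0 rose and 2 fell.

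The plasma cell gene Jchain was the gene with the steepest fall among those named in CD8αα αβ cells (-6.01). It had 13.4, 0, 0 and 0 CPM in Gzmk-positive cells of cystine replicates 1 and 2 and control replicates 1 and 2, against 319, 1.36, 93.7 and 149 CPM in Gzmk-negative cells. Summed plasma cell markers stood at 102 CPM in Gzmk-positive and 257 CPM in Gzmk-negative cells, with 2 of 3 tested lower. Summed mast cell markers stood at 39.2 CPM in Gzmk-positive and 132 CPM in Gzmk-negative cells, with 2 of 2 tested lower (Kit and Mcpt1). Epithelial markers summed to 532 CPM in Gzmk-positive and 621 CPM in Gzmk-negative cells, with 3 of 9 lower (Fabp2, Defa30 and Defa24). The part of these cells in the other differences was not tested.

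**Figure D5:**
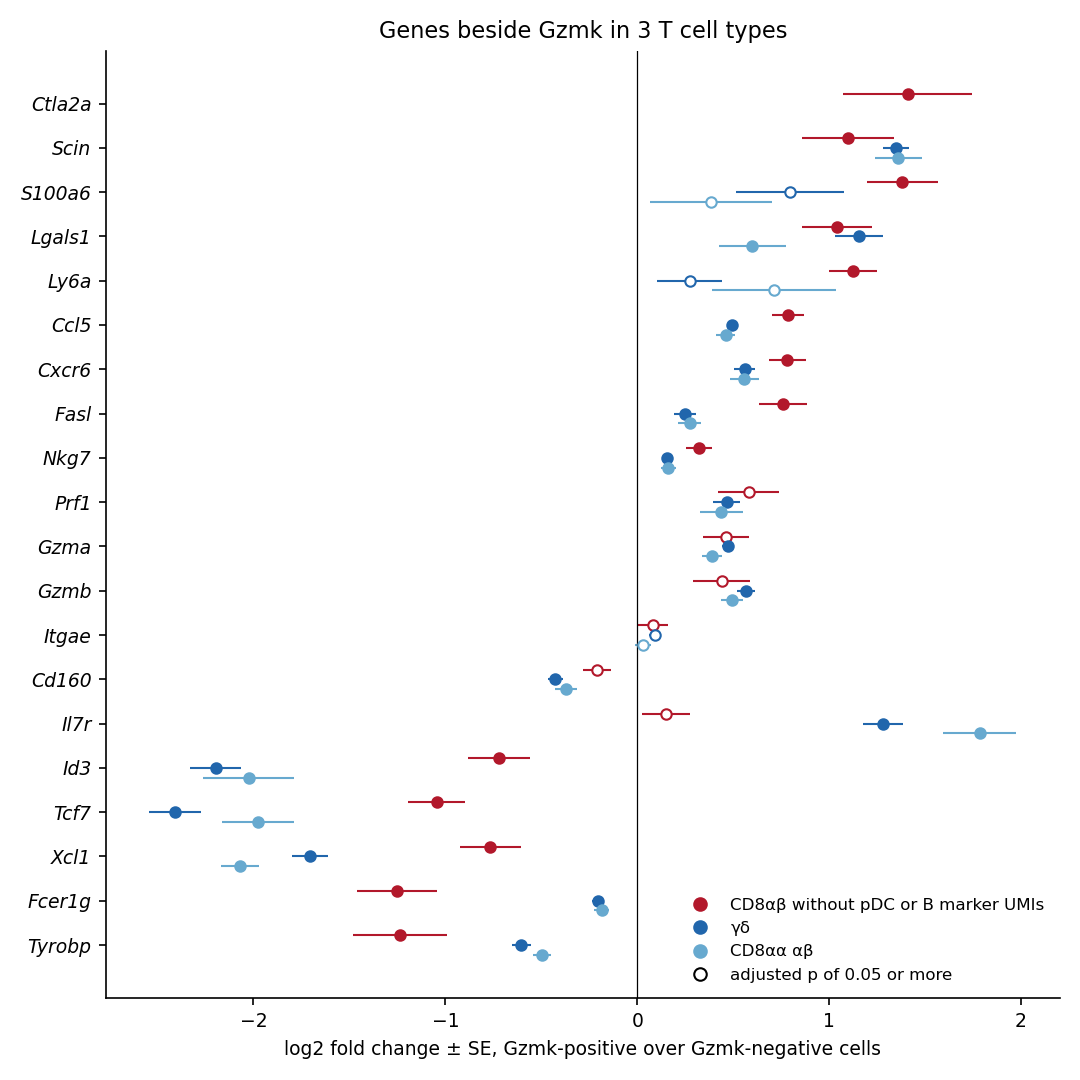
Log2 fold change with its standard error of named genes between Gzmk-positive and Gzmk-negative cells, in CD8αβ cells without pDC or B cell UMIs (red), γδ cells (dark blue) and CD8αα αβ cells (light blue). Filled points passed an adjusted p of 0.05, and a missing point was not tested. Ccl5, Cxcr6 and Fasl rose and Tcf7, Id3 and Xcl1 fell in all 3 types, whereas Il7r, at 0.15 in CD8αβ cells, passed in γδ and CD8αα αβ cells.

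The genes called in CD8αβ cells without pDC or B cell UMIs were mostly called in γδ cells too. The comparisons had no cells in common but came from the same 4 libraries. Of the 23 genes higher in Gzmk-positive CD8αβ cells 17 were also higher in γδ cells, 73.9% of the first list and 3.79% of the second. Of the 34 lower genes 28 were lower in γδ cells, 82.4% of the first and 6.70% of the second. Over all genes tested in γδ cells 4.28% were higher and 3.98% lower. Between γδ and CD8αα αβ cells 174 higher genes were shared (38.8% and 75.7%) and 144 lower ones (34.4% and 69.9%). Over all genes tested in CD8αα αβ cells 2.39% were higher and 2.14% lower. The γδ and CD8αα αβ gates were not told apart cleanly by their receptor RNA, and the part of this in the sharing was not tested.

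Whether a gene's difference between Gzmk-positive and Gzmk-negative cells was unequal in the 2 cell types was tested as an interaction, after removal of cells with pDC or B cell UMIs. Of 8687 genes 14 (0.161%) passed, 7 with the more positive effect in CD8αβ cells and 7 in γδ cells (0.0806% each), and 212 of 8973 (2.36%) passed in the gates with such cells kept. Id3 fell less in CD8αβ cells (-0.72) than in γδ cells (-2.21), with a difference of 1.48 (adjusted p = 0.0020). Tcf7 likewise fell by 1.05 in CD8αβ cells and by 2.42 in γδ cells, a difference of 1.36 (adjusted p = 0.0030). Il7r had 0.15 in CD8αβ cells and 1.29 in γδ cells, a difference of -1.12 (adjusted p = 0.00086). Fcer1g fell more in CD8αβ cells (-1.25) than in γδ cells (-0.22), a difference of -1.11 (adjusted p = 0.017). Gzma, at 0.46 in both, differed by -0.01 (SE 0.15, adjusted p = 0.9999) and Ccl5 by 0.29 (adjusted p = 0.55).

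Genes that lie near Gzmk on chromosome 13 were followed because they share its neighbourhood. In the RefSeq annotation of GRCm38.p6 the order is Cdc20b, 3 microRNA genes, Gpx8, Gzma, the non-coding 1700084D21Rik, Gzmk, the non-coding Gm41069 and Esm1. The microRNA genes and Gm41069 were not analysed here. In γδ cells Gzma, Gpx8, Cdc20b and Esm1 were all higher in Gzmk-positive cells, where 4.28% of all genes tested were higher. Esm1, which encodes the secreted proteoglycan endocan, had 40 UMIs in Gzmk-positive and 23 in the more numerous Gzmk-negative γδ cells, 5.69 ± 2.57 CPM and 0.86 ± 0.58 CPM, and rose by 2.63 (SE 0.43, adjusted p = 0.00019). Gpx8, a peroxidase of the endoplasmic reticulum, averaged 49.3 ± 9.08 CPM in Gzmk-positive and 22.3 ± 6.50 CPM in Gzmk-negative cells (1.19, adjusted p = 4.6e-08). Cdc20b, a relative of a cell cycle activator, averaged 35.0 ± 4.30 CPM in Gzmk-positive and 18.8 ± 1.31 CPM in Gzmk-negative cells (0.92, adjusted p = 1.9e-05). Each was higher in 4 of 4 samples. 1700084D21Rik, which lies between Gzma and Gzmk in this order, had 18 UMIs in Gzmk-positive and 64 in Gzmk-negative γδ cells. Its levels were 2.51 ± 1.77 and 2.48 ± 0.164 CPM in positive and negative cells, with a log2 fold change of -0.0017 (SE 0.46).

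The neighbours were also read in the other types. In CD8αα αβ cells Gpx8 rose by 1.04 (adjusted p = 0.00024) and Cdc20b by 0.78 (adjusted p = 0.024). Esm1 had 9 UMIs in Gzmk-positive and 5 in Gzmk-negative cells there and was not tested. In CD8αβ cells as gated Cdc20b had 30 UMIs in Gzmk-positive and 16 in Gzmk-negative cells, Gpx8 18 and 28, and Esm1 11 and 7, all too few to be tested. Whether reads of Gzmk and of these genes could be assigned to each other was not tested.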

How the data were processed

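Per the file headers, which name Cell Ranger 7.0.1, each deposited matrix gives raw UMI counts of genes by barcodes. The submitters' processing notes list Cell Ranger 3.1.0 beside Seurat 4.0.1 and the build GRCm39. Cells needed 300 genes and no more than 10% mitochondrial UMIs, and those with the highest Scrublet scores (scanpy 1.11.5) were dropped as doublets, at 0.8% per 1000 barcodes. CD3 means a UMI of Cd3e, Cd3d or Cd3g. CD8αβ cells had CD3, Cd8a and Cd8b1 without Cd4 or Trdc. CD4 cells had CD3 and Cd4 without Cd8a, Cd8b1 or Trdc. γδ cells had CD3 and Trdc without Cd4 or Cd8b1. CD8αα αβ cells had CD3, Cd8a and Trac without Cd8b1, Cd4 or Trdc. Without CD3, NK cells had Ncr1 and no Trac or Trdc, B cells Cd79a with Cd79b or Ms4a1, and pDC Siglech with Bst2 or Tcf4.

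UMIs were summed per sample and type and fitted with edgeR 4.0.16 (filterByExpr, TMM, glmQLFit, glmQLFTest; adjusted p threshold 0.05), in types with at least 30 cells in every sample, which leaves out NK cells. The splits by Gzmk state had the sample as a block, and the interaction had sample and type as a block. DESeq2 1.42.0 was an alternative. CPM of genes in tests are TMM-scaled, while those of Gzmk use all UMIs of the type. Limits for a count of 0 use 3 counts. The fits were tested on simulated data.

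The gene, its gates and the 6 gene lists (granzymes, granule partners, genes known beside Gzmk, naive and circulating T cells, epithelial residence, effector factors and cytokines) were chosen with earlier results of these data known. The rule for named genes took, for each split, up to 12 higher and 12 lower by size with the same sign in all 4 samples and at least 20 CPM in a state, up to 4 members of each list that passed, 9 granule and T cell genes, and the neighbours of Gzmk. Other list members were named after their values were seen. Some genes that met the rule are left out for length or are not reported here, and receptor genes are given as counts.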

Additional observations from a re-analysis of the deposited data

Results flagged for a closer look

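Gzmk went in opposite directions in different T cell types. Its log2 difference was 1.94 in CD8αβ cells and -1.14 in γδ cells, and both cystine samples lay on the same side of both controls in each type. Beside the CD8αβ cells, CD8αα αβ cells had -1.06, again with both cystine samples below both controls. The difference between these types was not tested, since Gzmk was chosen for its pattern.

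The effect of Gzmk state was unequal in CD8αβ and γδ cells for several genes in a test of the difference itself, CD8αβ minus γδ cells, without cells holding pDC or B cell UMIs. Differences above 0 were found for Id3 (1.48), Defa24 (1.41), Tcf7 (1.36) and Xcl1 (1.02). Those below 0 were found for Il7r (-1.12), Fcer1g (-1.11) and Lat (-0.46). In edgeR's quasi-likelihood test the adjusted p was 0.00086 for Defa24 and Il7r, 0.0020 for Id3, 0.0030 for Tcf7, 0.0100 for Lat, 0.017 for Fcer1g and 0.029 for Xcl1. Defa24 encodes a defensin of Paneth cells, an epithelial cell type. In γδ cells as gated it had 123 and 105 CPM in Gzmk-positive and 240 and 456 CPM in Gzmk-negative cells of the cystine samples, and 0.576 and 0.647 CPM against 0.903 and 1.06 CPM in those of the controls. The part of epithelial RNA in it was not tested.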

How the results depend on the processing

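Gzmk kept its direction in CD8αβ cells (log2 difference 1.57 to 2.41), γδ cells (-1.48 to -0.71) and CD8αα αβ cells (-1.55 to -0.36) under all 15, 14 and 14 alternatives run. With a sample left out, the CD4 difference ranged from -1.28 to 1.13 and that over all cells from -0.80 to 0.16, and differences in the share of positive cells, in percentage points, from -7.61 to 4.68 in CD4 cells, -4.81 to 5.19 in NK cells, -0.013 to 0.466 in B cells, 0 to 1.47 in pDC and -10.9 to 0.376 over all cells. The CD4 share difference was 0.917 with doublets kept, 0.525 with a stricter cell filter (800 genes, 5% mitochondrial UMIs), and 3.93 with gates from thinned counts. The NK one was -0.799 after thinning and -3.22 with gates from thinned counts, and the B cell one 0.777 with that stricter filter. CD4 and NK cells numbered 261 and 96 in all.

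The 63 genes called by diet in CD8αβ cells became 313 with no low count filter, 16 with doublets kept, 24 after thinning, 29 with gates from thinned counts, 27 with a strict gate, 32 with a loose gate and 20 to 166 with a sample left out. With the replicate number as a block there were 176. Whether the replicate numbers mark pairs of samples is not among the labels. Deviations of same-numbered samples correlated at -0.057 in CD8αβ and 0.043 in γδ cells. With so few samples these correlations cannot decide whether the numbers mark pairs. In the splits the samples are themselves the pairs. Without that block the counts were 179 in CD8αβ cells, 61 in γδ cells, 33 in CD8αα αβ cells and 10 in CD8αβ cells without pDC or B cell UMIs.

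The 282 genes of the CD8αβ split became 532 without the filter, 128 by DESeq2's Wald test, 138 after thinning, 69 with gates from thinned counts, 8 with the strict gate, 57 without pDC or B cell UMIs, and 141 to 440 with a sample left out. Those 57 became 111 without the filter, 11 by DESeq2 and 28 to 62 with a sample left out. The 867 of γδ cells became 295 by DESeq2, 328 after thinning, 237 with gates from thinned counts, 356 without Trac-positive cells and 503 to 665 with a sample left out. The 436 of CD8αα αβ cells became 127 by DESeq2, 238 with the stricter cell filter, 207 after thinning, 124 with gates from thinned counts, 668 with Trbc admitted and 189 to 356 with a sample left out. The 14 of the interaction became 212 as gated and 11 to 28 with a sample left out.

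In the CD8αβ split Gzma turned to -0.051 with the strict gate, Ly6a to 0.087 with gates from thinned counts, 0.39 with the strict gate and 1.12 without pDC or B cell UMIs, and Ly6c2 to 0.49 without them. Gzmc in γδ cells turned to -0.30 after thinning and -0.37 with gates from thinned counts. Of the other values of named genes 2018 were on the same side of the threshold, 309 no longer passed and 23 newly passed, 20 of them Gzma or Gzmb in CD8αβ cells. The gates from thinned counts, the fits without pDC or B cell UMIs, the γδ and CD8αα αβ splits and the interaction were chosen after seeing the data. The cause of these shifts was not tested.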
